A study of Mus musculus with 24 samples.

Results

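The CD300 molecules are receptors of the immunoglobulin superfamily on myeloid cells, and 4 of their genes, Cd300a, Cd300lf, Cd300lb and Cd300ld, were followed across cultures of mouse pulmonary fibroblasts. They are 4 of the 34285 gene symbols with a read in any library and 4 of the 12 symbols that begin with Cd300. The members were chosen by measured values: Cd300a and Cd300lb were already known to be among the largest falls with rmCIRP in wild type (WT) cells. For that reason the difference between rmCIRP and PBS in WT cells, the same difference in the presence of rmTGF-β1, and its change between genotypes are given for the members as descriptions, with no test.

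Pulmonary fibroblasts of WT and TLR4-/- mice, both C57BL/6 and 4 to 8 weeks old, were compared. Every culture was kept overnight in reduced serum medium, received PBS, 1 μg/mL of rmCIRP (recombinant mouse cold-inducible RNA-binding protein), 2 ng/mL of rmTGF-β1 (recombinant mouse transforming growth factor β1) or rmCIRP+rmTGF-β1, and was lysed after 24 h. Each of the 8 combinations had 3 libraries of total RNA, 24 libraries in all, with 29853346 to 39664606 reads counted on genes per library. The cells of each genotype came from a pool of 3 to 4 lungs and were used at passages 3 to 6, so that the 3 libraries of a condition may be cultures of a single pool, and p-values measure only the spread between these libraries.

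CD300 receptors bind lipids such as phosphatidylserine and phosphatidylethanolamine, which dying cells expose, and tune the response of macrophages, mast cells and other myeloid cells. Cd300a and Cd300lf encode receptors with long cytoplasmic tails that carry inhibitory tyrosine motifs and recruit phosphatases. Cd300lb and Cd300ld encode receptors with short tails that signal through the partner chains DAP12 (Tyrobp) or FcRγ (Fcer1g). In the lung these receptors are known from macrophages and other leukocytes, not from fibroblasts.

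All 4 members lie in a cluster of Cd300 genes on chromosome 11. Their promoters are shown because all 4 members shared one difference between genotype labels but responded unequally to the agents. The sequences are those of RefSeq on build GRCm38.p6, 250 bases before to 50 after the gene start, on the strand of the gene. Capitals mark the purine box GAGGAA, the core bound by the myeloid factor PU.1, or TTCCTC where it lies on the opposite strand.
Cd300a (chr11:114889791-114890090, plus strand): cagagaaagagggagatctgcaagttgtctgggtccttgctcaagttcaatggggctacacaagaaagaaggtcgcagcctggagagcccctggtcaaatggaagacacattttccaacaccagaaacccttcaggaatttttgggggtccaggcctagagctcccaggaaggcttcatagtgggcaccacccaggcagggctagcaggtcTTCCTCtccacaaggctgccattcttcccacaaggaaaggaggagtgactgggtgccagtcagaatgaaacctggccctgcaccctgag
Cd300lb (chr11:114934322-114934621, minus strand): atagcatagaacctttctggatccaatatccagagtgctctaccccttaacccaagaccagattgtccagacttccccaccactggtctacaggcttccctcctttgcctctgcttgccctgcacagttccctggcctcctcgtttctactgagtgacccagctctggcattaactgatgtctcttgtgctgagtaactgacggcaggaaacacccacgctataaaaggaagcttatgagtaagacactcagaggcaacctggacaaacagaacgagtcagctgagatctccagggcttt
Cd300ld (chr11:114989837-114990136, minus strand): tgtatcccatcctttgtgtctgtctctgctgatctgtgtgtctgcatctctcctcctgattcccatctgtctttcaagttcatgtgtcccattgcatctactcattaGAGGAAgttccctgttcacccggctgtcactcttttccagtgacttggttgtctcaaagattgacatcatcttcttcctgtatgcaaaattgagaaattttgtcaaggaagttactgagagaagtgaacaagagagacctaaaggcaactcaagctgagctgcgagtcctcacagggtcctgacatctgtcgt
Cd300lf (chr11:115133943-115134242, minus strand): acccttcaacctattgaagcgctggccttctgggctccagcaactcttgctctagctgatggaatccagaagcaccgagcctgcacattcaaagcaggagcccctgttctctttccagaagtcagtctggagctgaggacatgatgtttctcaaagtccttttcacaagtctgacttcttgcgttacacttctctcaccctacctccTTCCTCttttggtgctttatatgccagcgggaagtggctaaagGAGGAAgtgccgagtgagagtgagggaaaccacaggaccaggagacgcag
The purine box was found once in the promoter of Cd300a and once in that of Cd300ld, 2 times in that of Cd300lf and not in that of Cd300lb. It occurs on either strand in 28.3% of 32851 promoters of the same length, and 2 or more times in 4.82% of them. Searched the same way, TTNNGNAA, a pattern of C/EBP factors, was found in 40.7% of all promoters, 2 times in Cd300a, once in Cd300ld and 3 times in Cd300lf. TGANTCA, a pattern of AP-1, was found in 7.81% of all promoters and in none of the 4. No match of the purine box lay over one of the other patterns. The genome build named in the submitters' processing notes is NCBIM37, so these positions are not those of the counted reads.

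The cultures held reads of fibroblasts, of macrophages and, at far lower levels, of other cells. Summed over 8 fibroblast markers, the mean normalised read count (counts divided by the size factor of the library) lay between 412230 and 565340 in the 8 conditions. Summed over 14 macrophage markers, from Cd68 and Csf1r to C1qa, it lay between 83542 and 97181 in WT conditions and between 360720 and 389278 in those labelled TLR4-/-, with every gene above 0. Defining genes of other leukocytes were mostly at or near 0. Fcer1a of mast cells had no read in any library and Cd3e of T cells at most 1. Ly6g of neutrophils and Flt3 of dendritic cells had at most 2. S100a9 of neutrophils had no read either, although S100a8 had 79 to 373 per library. Whether the S100a9 symbol was lost in the counting is not known. Of 8 mast cell markers 3 passed the filter on low counts, and the list summed to 31.8 to 41.6 normalised counts in WT libraries with PBS and 70.0 to 92.9 in those with rmCIRP, mostly from Hdc and Kit. Of 10 neutrophil markers 3 passed, and the list summed to 140.5 to 166.5 and 310.7 to 363.5, mostly from S100a8. Of 6 dendritic cell markers 2 passed, and the list summed to 206.1 to 235.6 and 280.9 to 316.1, mostly from Zbtb46, while Xcr1 rose by 1.81. Of 8 endothelial and epithelial markers 6 passed, and the list summed to 606.3 to 794.7 with PBS and 554.5 to 671.8 with rmCIRP. Cdh1 fell by 2.65, from a mean of 26.3 to 4.13 normalised counts, Krt18 by 1.24 and Kdr by 0.54. Cldn5, at 0.82, Cdh5, at -0.09, and Vwf, at -0.002, had no adjusted p under 0.1. The mast cell, neutrophil and dendritic cell sums were higher with rmCIRP, where the members were lower, and the part of all these lists in the results was not tested. Tlr4 itself was not lower under the label TLR4-/-, with a mean of 903 ± 20.2 (SD, n = 3) normalised counts against 759 ± 41.9 in WT cells with PBS (log2 fold change 0.25, SE 0.06, adjusted p = 0.0012). Which part of Tlr4 the reads fell on is not in these counts, so the libraries are called labelled TLR4-/-. The third library labelled TLR4-/- with rmCIRP+rmTGF-β1 stood apart from its replicates, with a chi-square per degree of freedom of 45.7 and 31.3 against them. The third library labelled TLR4-/- with rmTGF-β1 had 11.9 and 15.6 against its replicates, and all remaining pairs of replicates had 2.52 to 7.03. In bulk RNA, fewer macrophages and less of a transcript per macrophage cannot be told apart.

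In WT cells with PBS, Cd300ld and Cd300lb were the more abundant members. Per 1000 exon bases, the mean level was 5.43 ± 0.486 (SD, n = 3) CPM (counts scaled to the TMM-normalised library total) for Cd300ld, 3.4 ± 0.433 for Cd300lb, 0.927 ± 0.0633 for Cd300a and 0.762 ± 0.103 for Cd300lf. In libraries labelled TLR4-/- with PBS, the same scale gave 25.6 ± 0.473 for Cd300ld, 14.1 ± 0.932 for Cd300lb, 4.15 ± 0.316 for Cd300a and 3.85 ± 0.229 for Cd300lf. With PBS both genotype labels thus had the adaptor-coupled members above the inhibitory members. In WT cells with rmCIRP, Cd300lb at 0.542 ± 0.0768 and Cd300lf at 0.533 ± 0.0663 differed by less than their SD. With rmCIRP+rmTGF-β1 in WT cells the order turned for this pair, with Cd300lb at 0.568 ± 0.0582 and Cd300lf at 0.798 ± 0.0647. Few bases of the members are shared with other genes, as 75-base stretches found elsewhere made up 1.37% of Cd300a, 2.33% of Cd300ld, 1.12% of Cd300lf and none of Cd300lb.

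Whether rmCIRP moved the members in WT cells was described first for the inhibitory receptors. Cd300a, a receptor for phosphatidylserine and phosphatidylethanolamine, had 139, 147 and 159 normalised counts in the WT libraries with PBS, against 26.5, 29.8 and 20.7 under rmCIRP. The libraries did not overlap, and the log2 fold change was -2.53 (SE 0.21), a 5.77-fold lower level. Cd300lf, an inhibitory receptor for phosphatidylserine and ceramide, had 116, 153 and 129 normalised counts in the PBS libraries, against 95.5, 79.2 and 102 under rmCIRP. Its libraries did not overlap either, yet the log2 fold change was only -0.53 (SE 0.24).

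Among the adaptor-coupled receptors, Cd300lb had 289, 339 and 376 normalised counts in the PBS libraries of WT cells, against 61.5, 50.4 and 47.4 under rmCIRP. This was the largest difference of the 4, at a log2 fold change of -2.66 (SE 0.16). Cd300ld had 432, 520.2 and 502 normalised counts in the PBS libraries, against 250.4, 233 and 263 under rmCIRP. Again the libraries did not overlap, at a log2 fold change of -0.97 (SE 0.11). Over all genes, 43.9% passed the threshold of an adjusted p under 0.1 in this comparison, and 50.8% had no overlap between the libraries of the 2 treatments, so that the lack of overlap is common here.

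**Figure D1:**
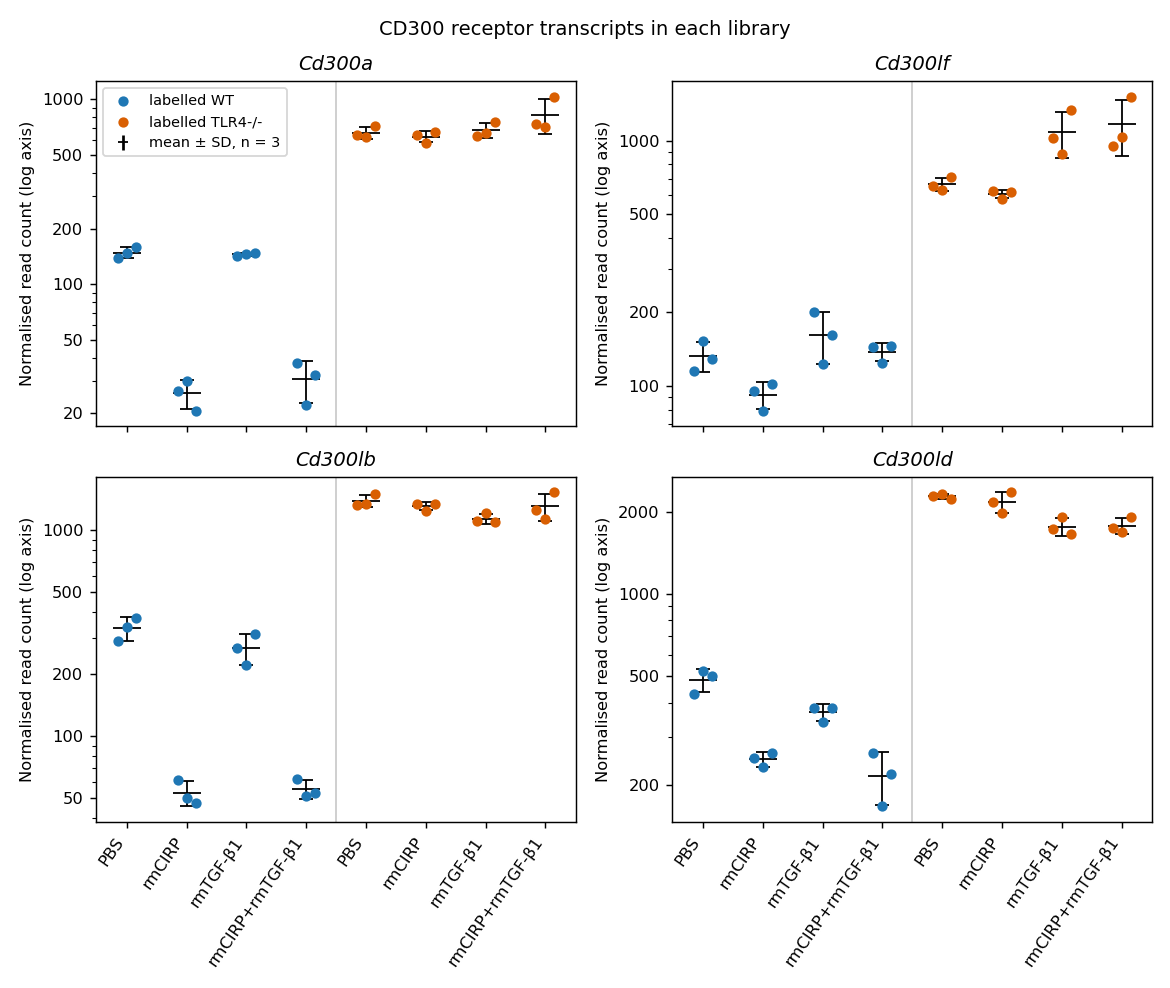
Normalised read counts (log axis) of the 4 members in each of the 24 libraries, by treatment and genotype label, with points for libraries and bars for the mean and SD of 3. Cd300a and Cd300lb drop with rmCIRP in the WT libraries from 139 to 376 down to 20.7 to 61.5 normalised counts, and show no such gap in the libraries labelled TLR4-/-.

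With rmTGF-β1 present, the WT cells gave a similar picture. Cd300a had 141, 146 and 147 normalised counts with rmTGF-β1 alone, against 37.7, 22.1 and 32.1 under rmCIRP+rmTGF-β1, a log2 fold change of -2.23 (SE 0.21). Cd300lb had 267, 222 and 312 with rmTGF-β1 alone, against 62.2, 51.1 and 53.2 under the combination, a log2 fold change of -2.27 (SE 0.17). For both receptors, every library with the combination lay below every library with rmTGF-β1 alone. Cd300ld had 383, 340.0 and 384 with rmTGF-β1 alone, against 262, 167 and 219 under the combination, a log2 fold change of -0.77 (SE 0.12). Cd300lf had 199.7, 123 and 161 with rmTGF-β1 alone, against 144, 124 and 145 under the combination. Its libraries overlapped, and the log2 fold change was -0.23 (SE 0.22). Over all genes, 42.2% passed the threshold and 50% had no overlap in this comparison, whose falls were also known when the members were chosen.

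Macrophage genes moved in both directions under rmCIRP. Of the 14 macrophage markers, 4 rose and 10 fell with rmCIRP in WT cells, with a median log2 fold change of -0.36, against -0.02 over all genes tested. Larger changes were a rise of Cd14, the co-receptor of TLR4, by 1.70 and of Adgre1, which encodes F4/80, by 0.98, beside a log2 fold change of -0.71 for Mrc1, the mannose receptor. The summed markers ranged from 91665 to 99989 normalised counts with PBS and from 80270 to 85585 with rmCIRP. Lyz2, 1 of the 14 markers, made up most of these sums, with means of 78175 and 62462. The lower sum with rmCIRP is thus mostly a value of Lyz2. The part of these shifts in the members' levels was not tested.

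Reads of each member were therefore also set against the reads of the 14 macrophage markers of the same library. Per 1000 marker reads, Cd300a of WT cells had 1.52 ± 0.0627 (SD, n = 3) with PBS against 0.309 ± 0.0647 under rmCIRP, 4.93-fold lower. Cd300lb had 3.44 ± 0.306 and 0.636 ± 0.0863, 5.4-fold lower. Cd300ld, at 4.98 ± 0.249 and 2.97 ± 0.0885, was 1.67-fold lower, and Cd300lf, at 1.36 ± 0.147 and 1.1 ± 0.103, was 1.24-fold lower. With Lyz2 left out of the sum, Cd300a was 6.36-fold, Cd300lb 6.97-fold, Cd300ld 2.16-fold and Cd300lf 1.59-fold lower. Libraries of the 2 treatments overlapped for none of the members on this scale. On the scale of normalised counts 50.8% of all genes tested had no overlap, and the share on this scale was not computed.

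**Figure D2:**
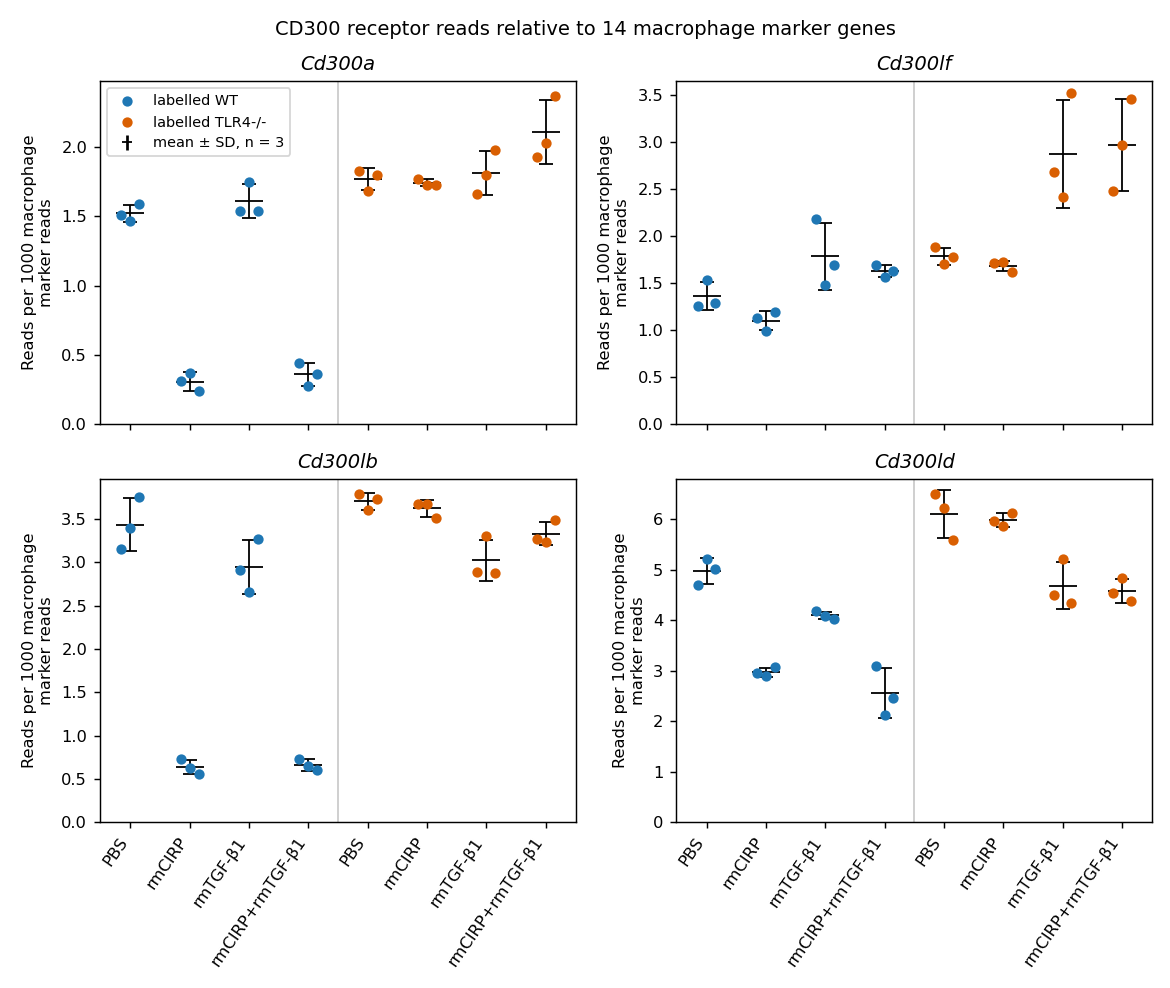
Reads of each member per 1000 reads of the 14 macrophage markers in the same library, from 0 upward, by treatment and genotype label, with points for libraries and bars for the mean and SD of 3. Cd300a and Cd300lb stay 4.93-fold and 5.4-fold lower with rmCIRP in WT cells, while the means of the 2 genotype labels with PBS lie within 1.08-fold to 1.31-fold of each other.

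Whether the members answered rmCIRP in cells labelled TLR4-/- was tested, since the choice of members did not use these libraries. None of the 4 passed, and their log2 fold changes lay between -0.13 and -0.06, each with an adjusted p of 0.95 or above. Cd300a had 640.2, 622 and 718 normalised counts with PBS, against 642, 582 and 662 under rmCIRP. Its 95% confidence interval was -0.29 to 0.16 on the log2 scale. Cd300lb had 1323, 1335 and 1489 with PBS, against 1336, 1239 and 1345 under rmCIRP, with an interval of -0.28 to 0.12. The libraries of both receptors overlapped.

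Cd300ld had 2273, 2310.0 and 2229 normalised counts with PBS, against 2165, 1976 and 2349 under rmCIRP in cells labelled TLR4-/-, with an interval of -0.24 to 0.11. Cd300lf had 656, 632 and 709.8 with PBS, against 621, 577 and 620.3 under rmCIRP. Its rmCIRP libraries all lay below those with PBS, as for 13.7% of all genes tested, and the interval, -0.45 to 0.19, included 0. Over all genes, 0% passed in this comparison by edgeR, while 1136 genes (6.99%) had an unadjusted p under 0.05 and DESeq2 called 33.

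As a description, the difference between labelled TLR4-/- and WT cells in the log2 response to rmCIRP was 2.46 (SE 0.24) for Cd300a, 2.58 (SE 0.19) for Cd300lb, 0.90 (SE 0.14) for Cd300ld and 0.40 (SE 0.29) for Cd300lf. These values contain the WT difference on which the members were chosen. With rmTGF-β1 present in cells labelled TLR4-/-, adding rmCIRP moved none of the members past the threshold, where 2.69% of all genes passed. The log2 fold changes were 0.27 (SE 0.11, adjusted p = 0.19) for Cd300a, 0.19 (SE 0.10, adjusted p = 0.3) for Cd300lb, 0.10 (SE 0.14) for Cd300lf and 0.01 (SE 0.08) for Cd300ld. Without the third library labelled TLR4-/- with both agents, the values were 0.08 for Cd300a, 0.07 for Cd300lb, -0.13 for Cd300lf and -0.04 for Cd300ld, and none passed.

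rmTGF-β1 separated the members in another way. In cells labelled TLR4-/-, Cd300lf rose while Cd300ld and Cd300lb fell, and Cd300a did not pass. Cd300lf had 656, 632 and 709.8 normalised counts with PBS and 1025, 884 and 1336 with rmTGF-β1, and rose by 0.71 on the log2 scale (SE 0.15, adjusted p = 0.0019). All 3 rmTGF-β1 libraries lay above all 3 with PBS, and the third was the highest. The level per 1000 macrophage marker reads went from 1.79 ± 0.0879 to 2.87 ± 0.574 (SD, n = 3), 1.61-fold higher, again without overlap. On that scale Cd300ld was 1.3-fold and Cd300lb 1.23-fold lower with rmTGF-β1, and Cd300a 1.03-fold higher.

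Cd300ld went the opposite way in the same libraries, with 2273, 2310.0 and 2229 normalised counts with PBS and 1722, 1908 and 1651 with rmTGF-β1. It fell by 0.36 on the log2 scale (SE 0.08, adjusted p = 0.0039). Cd300lb had 1323, 1335 and 1489 with PBS and 1108, 1204 and 1092 with rmTGF-β1, and fell by 0.28 (SE 0.10, adjusted p = 0.049). The libraries of neither gene overlapped, as for 33.8% of all genes tested, and the call of Cd300lb was lost without the third PBS library or without the first or the third rmTGF-β1 library, where the adjusted p reached 0.18. Cd300a had 640.2, 622 and 718 with PBS and 636, 657 and 753 with rmTGF-β1, which overlapped, at a log2 difference of 0.05 (SE 0.11, adjusted p = 0.78). Over all genes, 23.9% passed in this comparison.

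In WT cells the response to rmTGF-β1 was read on lower counts. Cd300ld had 432, 520.2 and 502 normalised counts with PBS and 383, 340.0 and 384 with rmTGF-β1, and fell by 0.40 on the log2 scale (SE 0.10, adjusted p = 0.02). Its libraries did not overlap, as for 29.7% of all genes tested, and the call was lost without the second PBS or the second rmTGF-β1 library, where the adjusted p reached 0.11. Cd300lb, at -0.32 (SE 0.12, adjusted p = 0.12), Cd300lf, at 0.28 (SE 0.22, adjusted p = 0.5), and Cd300a, at -0.04 (SE 0.15, adjusted p = 0.93), did not pass. Here 12.4% of all genes passed.

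The difference between the genotype labels in the response to rmTGF-β1 was tested directly and passed for none of the members, with 0.0861% of all genes past the threshold. For Cd300lf it was 0.43 (SE 0.27, adjusted p = 0.62), with a 95% confidence interval (-0.12 to 0.98) that includes both no difference and one larger than the rise itself. For Cd300a, Cd300lb and Cd300ld the differences were 0.09, 0.04 and 0.03.

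With rmCIRP present, adding rmTGF-β1 to cells labelled TLR4-/- again raised Cd300lf and lowered Cd300ld, while Cd300a rose and Cd300lb did not pass. Cd300lf had 621, 577 and 620.3 normalised counts with rmCIRP and 948, 1036 and 1511 with both, and rose by 0.94 (SE 0.15, adjusted p = 0.00013). Cd300ld had 2165, 1976 and 2349 with rmCIRP and 1735, 1688 and 1911 with both, and fell by 0.29 (SE 0.08, adjusted p = 0.014). Cd300a had 642, 582 and 662 with rmCIRP and 739, 709 and 1032 with both, and rose by 0.39 (SE 0.11, adjusted p = 0.01). The libraries of these 3 genes did not overlap between treatments, as for 34.5% of all genes tested, and the third library with both agents was the highest for each gene. Without it Cd300a rose by 0.20 (adjusted p = 0.098) and Cd300lf by 0.71 (adjusted p = 0.00043), while Cd300ld fell by 0.34 (adjusted p = 0.0067). Cd300lb did not pass, at -0.01 (SE 0.10). The share of all genes that passed was 32.8%.

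In WT cells, where 20.5% of all genes passed, none of the members did when rmTGF-β1 was added to rmCIRP. Cd300lf came closest, with 95.5, 79.2 and 102 normalised counts with rmCIRP and 144, 124 and 145 with both, at a log2 difference of 0.58 (SE 0.24, adjusted p = 0.12). Its libraries did not overlap, as for 36.4% of all genes tested. The values of the others were 0.27 (SE 0.29) for Cd300a, 0.07 (SE 0.23) for Cd300lb and -0.20 (SE 0.12) for Cd300ld.

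**Figure D3:**
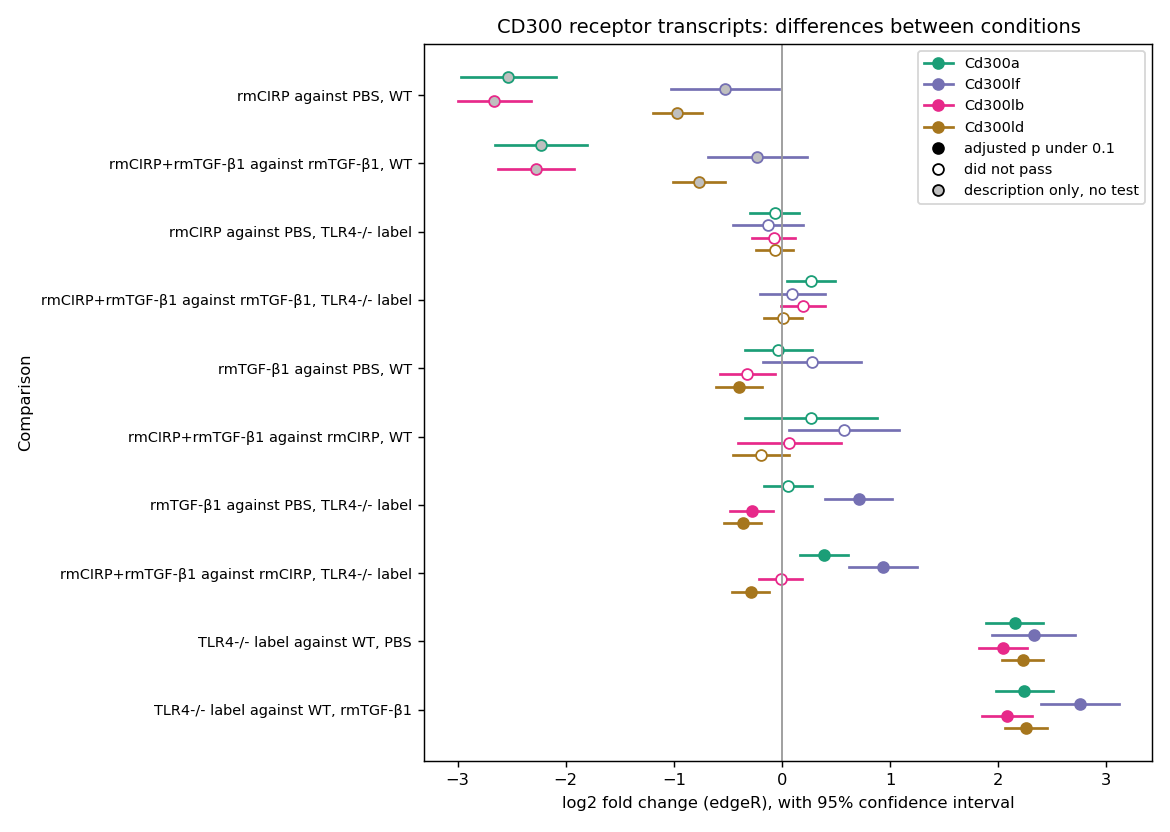
Log2 fold changes of the 4 members with 95% confidence intervals in 10 comparisons of conditions; filled points passed an adjusted p under 0.1, open points did not, and grey points are descriptions with no test. Cd300a and Cd300lb sit between -2.66 and -2.23 in the WT comparisons with rmCIRP, and Cd300lf lies to the right of 0 at 0.71 and 0.94 where rmTGF-β1 was added to cells labelled TLR4-/-.

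All 4 members were higher in libraries labelled TLR4-/- than in WT libraries with PBS. The log2 fold changes were 2.15 (SE 0.13, adjusted p = 3.3e-12) for Cd300a, 2.33 (SE 0.19, adjusted p = 6.4e-10) for Cd300lf, 2.05 (SE 0.11, adjusted p = 4.2e-13) for Cd300lb and 2.23 (SE 0.09, adjusted p = 5.6e-15) for Cd300ld. In this comparison 47.1% of all genes passed, and 51.7% had no overlap between the labels, as had the 4 members. All 14 macrophage markers rose with the label as well, by a median of 2.19 on the log2 scale, the same as the median of the 4 members, led by C1qa at 2.81 and C1qb at 2.63. The other inhibitory and the other activating myeloid receptors listed rose too, 12 of 12 in each list, with medians of 1.94 and 2.10, among them Fcgr2b at 2.48 and Trem1, an amplifier of inflammation, at 2.99. Of 16 adaptors and proximal signalling genes 14 rose and 2 fell, and Fcer1g rose by 2.25. Markers of other cells moved as well. Vwf of endothelium rose by 2.13 and Krt18 and Cdh1 of epithelium by 1.89 and 1.63, while the endothelial Cdh5 and Cldn5 fell by 1.81 and 1.48. Of 8 fibroblast markers, Pdgfra fell by 1.19, Thy1 by 1.16 and Pdgfrb by 0.31, while Dcn rose by 0.25. The remaining 4 did not pass, and the median of the list was -0.11. The part of these markers in the members' difference was not tested. The genotype label, the pool of lungs and the macrophage share cannot be told apart in this design.

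Per 1000 macrophage marker reads, the genotype labels were close. With PBS, Cd300a had 1.77 ± 0.0821 (SD, n = 3) in libraries labelled TLR4-/- against 1.52 ± 0.0627 in WT libraries, 1.16-fold higher. Cd300lb was 1.08-fold, Cd300ld 1.23-fold and Cd300lf 1.31-fold higher. When Lyz2, the most abundant marker, was left out of the sum, the direction turned for Cd300a, Cd300lb and Cd300ld, at log2 ratios of -0.11, -0.22 and -0.03, and the log2 ratio of Cd300lf was 0.07. With rmTGF-β1, where 46.5% of all genes passed, the members differed between genotype labels by 2.24 for Cd300a, 2.09 for Cd300lb, 2.26 for Cd300ld and 2.76 for Cd300lf on the log2 scale, all past the threshold.

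Across the 8 conditions the order of the mean levels differed between members. Cd300a and Cd300lb fell into 3 steps that did not overlap: the conditions labelled TLR4-/-, the WT conditions without rmCIRP, and the WT conditions with rmCIRP. Within each step, neighbouring conditions in that order overlapped. Cd300a was highest with rmCIRP+rmTGF-β1 in cells labelled TLR4-/-, at 827 ± 179 (SD, n = 3) normalised counts, and lowest with rmCIRP in WT cells, at 25.7 ± 4.6. For Cd300lb the extremes were 1382 ± 92.7 with PBS in cells labelled TLR4-/- and 53.1 ± 7.44 with rmCIRP in WT cells.

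Cd300lf was highest with rmCIRP+rmTGF-β1 in cells labelled TLR4-/-, at 1165 ± 303 normalised counts, and lowest with rmCIRP in WT cells, at 92.2 ± 11.6. In cells labelled TLR4-/-, its rmTGF-β1 libraries lay above those with PBS and these above those with rmCIRP, and in WT cells its PBS libraries lay above those with rmCIRP, without overlap, whereas its other neighbours within a genotype overlapped. Cd300ld ran from 2271 ± 40.7 with PBS in cells labelled TLR4-/- to 216 ± 47.5 with rmCIRP+rmTGF-β1 in WT cells, and within each genotype label its levels with rmTGF-β1 lay below those with PBS.

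Among the 8 other Cd300 symbols, 3 passed the filter on low counts: Cd300c2, Cd300e and Cd300ld3. Cd300c2, an adaptor-coupled activating receptor, had 359.9, 433 and 429.9 normalised counts in the PBS libraries of WT cells, against 248, 222 and 217 under rmCIRP. It fell by 0.84 on the log2 scale (SE 0.12, adjusted p = 5.9e-06), beside the -0.97 of Cd300ld and the -2.53 of Cd300a, and per macrophage marker read it was 1.53-fold lower. In cells labelled TLR4-/- its log2 fold change with rmCIRP was -0.08 (SE 0.09), and the difference between genotype labels in this response was 0.76 (SE 0.15, adjusted p = 0.00054), where 31.4% of all genes passed.

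Cd300e moved the other way on few reads, with 10.6, 4.99 and 8.33 normalised counts in the PBS libraries of WT cells, against 9.55, 18.5 and 28.6 under rmCIRP. It rose by 1.24 (SE 0.45, adjusted p = 0.034), although its libraries overlapped, and the call was lost without the second PBS library or the third rmCIRP library, where the adjusted p reached 0.24. The difference between genotype labels in this response was -1.44 (SE 0.54, adjusted p = 0.057), and it too was lost without either library. Cd300ld3 shares 81.5% of its 75-base stretches with its near copies, so its 2 to 46 reads per library are uncertain. Cd300c, Cd300ld2, Cd300ld4, Cd300ld5 and Cd300lg had at most 7 reads in any library. With PBS, Cd300c2, Cd300e and Cd300ld3 rose with the TLR4-/- label by 1.89, 2.21 and 2.44 on the log2 scale.

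The partners of these receptors did not move as a block with rmCIRP in WT cells. Of 16 adaptors and proximal signalling genes, 5 rose and 6 fell, with a median log2 fold change of 0. Syk, the kinase that binds phosphorylated adaptors, rose by 1.5 (SE 0.11), and Fcer1g, the FcRγ chain, rose by 0.57 (SE 0.07). Inpp5d, the phosphatase SHIP1 that inhibitory receptors recruit, fell by 1.43 (SE 0.10), and Fgr, a Src family kinase, fell by 1.12 (SE 0.20). Tyrobp, named after its values were seen because it is the partner of Cd300lb, fell by 0.39 (SE 0.07, adjusted p = 0.00018).

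Of 12 other inhibitory myeloid receptors, 7 rose and 3 fell with rmCIRP in WT cells, with a median log2 fold change of 0.59. Siglece, a sialic acid receptor, rose by 1.86 (SE 0.25), Fcgr2b, the inhibitory Fc receptor, by 1.46 (SE 0.08) and Milr1, the allergin receptor, by 1.14 (SE 0.09), whereas Lair1, a collagen receptor, fell by 1.19 (SE 0.14). Of 12 other adaptor-coupled activating receptors, 7 rose and 4 fell, with a median of 0.41. Clec4e, which encodes Mincle, rose by 4.07 (SE 0.10), Fcgr1 by 2.26 (SE 0.14) and Pilrb1 by 0.94 (SE 0.14), whereas Sirpb1a fell by 1.12 (SE 0.32). The lists were described by their counts and medians only, beside 19.8% of all genes that rose and 24.1% that fell.

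**Figure D4:**
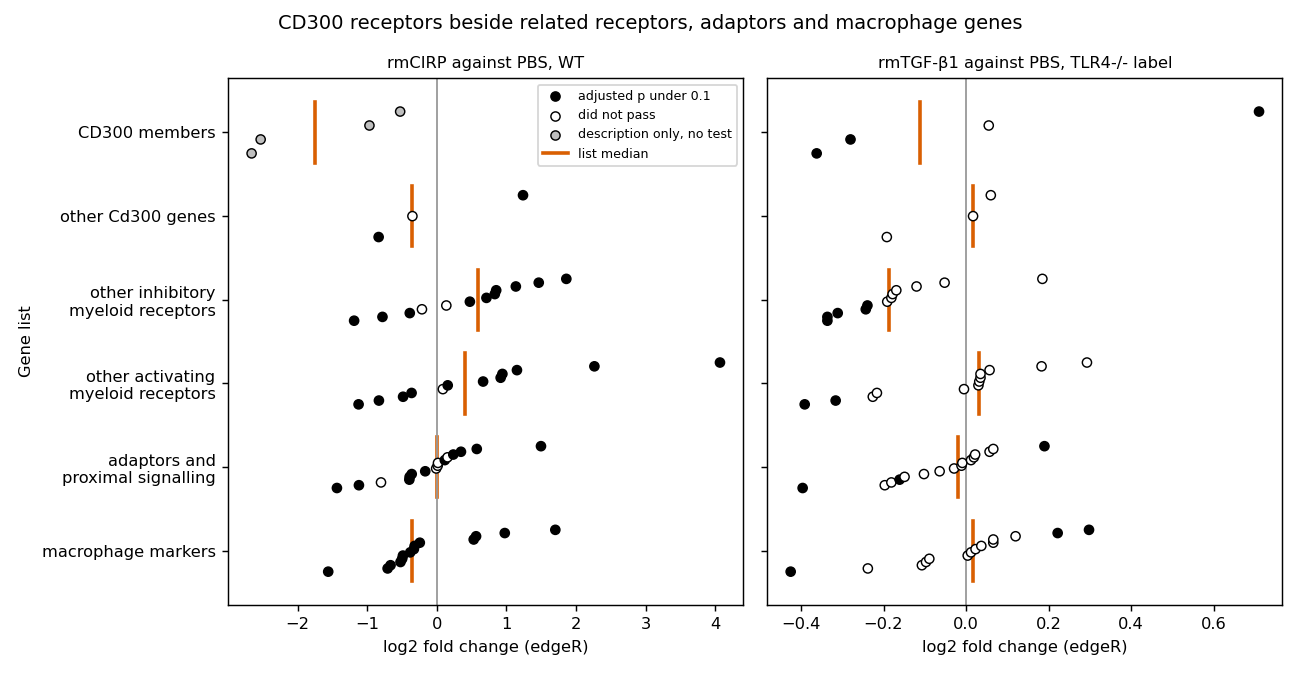
Log2 fold changes of single genes in 6 lists (points) with the median of each list (orange line), for rmCIRP against PBS in WT cells on the left and rmTGF-β1 against PBS in cells labelled TLR4-/- on the right, on axes of different range; black points passed an adjusted p under 0.1, open points did not, and grey points are descriptions. On the left the medians of the other inhibitory and activating receptors lie at 0.59 and 0.41 and the grey members were chosen on this comparison. On the right Cd300lf, at 0.71, lies to the right of every other gene shown.

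With rmTGF-β1 in cells labelled TLR4-/-, 12.15% of all genes tested rose and 11.74% fell. The 12 other inhibitory receptors had 5 falls, no rise and a median of -0.19, led by Clec12a and Lilrb4a, at -0.34 each. The 12 activating receptors had 2 falls, of Clec4e, at -0.39, and Pilrb1, at -0.32, while 10 did not pass and the median was 0.03. Among the macrophage markers Mrc1 fell by 0.43 (SE 0.08), while Mertk, a receptor for phosphatidylserine-coated cells, rose by 0.30 (SE 0.09). Of the dendritic cell markers, Xcr1 rose by 1.04 (SE 0.35, adjusted p = 0.045), more than Cd300lf, and its part in the rise of Cd300lf was not tested.

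The genes whose pattern over the 24 libraries was most like that of a member were found among 12311 other genes with a mean of at least 50 normalised counts, by Pearson's correlation of log2 values, given as a description because the libraries share their conditions. Cd300a and Cd300lb had the same gene first, Rab3il1, at 0.995 and 0.997, and each stood among the 5 most like the other, at 0.994. Because both members were chosen for their falls with rmCIRP in WT cells, their likeness partly restates that choice. Rab3il1, which encodes an exchange factor for Rab proteins, averaged 242 normalised counts with PBS against 31.2 under rmCIRP in WT cells, and 1213 with PBS in cells labelled TLR4-/-. The others were Plxdc1, Kcnk13 and Plcb2 for Cd300a and Lfng, Lrmp and Susd3 for Cd300lb.

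Cd300ld was most like Atp2a3, Zranb3, C3ar1, Mrc1 and Lair1, at 0.995 to 0.996. Cd300lf was most like Bhlhe41, at 0.987, followed by Tgfbi, Plin2, Slc27a1 and Tmem189. Tgfbi, whose name records its induction by TGF-β, had a mean of 2467 normalised counts with PBS and 4023 with rmTGF-β1 in cells labelled TLR4-/-. Between the members themselves, the correlation of Cd300a with Cd300lb was 0.984 over the 12 WT libraries and 0.378 over the 12 labelled TLR4-/-, and that of Cd300lf with Cd300ld was 0.402 and -0.765.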

How the data were processed

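Pulmonary fibroblasts were profiled by RNA sequencing in 24 libraries (TruSeq Stranded Total RNA kit). STAR2 was the authors' aligner, against GENCODE's mouse reference, and raw read counts per gene symbol from HTSeq were deposited, not normalised. The submitters' processing notes name NCBIM37, FastQC and HTSeq. Tool versions, the annotation release and the strand option are not given in the sources used here. The 5 tally lines of each file (14.5% to 16.1% of its reads) were left out.

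Counts were tested in R 4.3.3 with edgeR 4.0.16 (TMM, filterByExpr by condition, glmQLFit with a mean per condition over all 24 libraries, quasi-likelihood F-test, Benjamini-Hochberg adjustment over 16258 genes, threshold 0.1). SE is the log2 fold change over the square root of F. Levels are counts over the size factors of DESeq2 1.42.0, and likeness used log2(level + 1). GENCODE M21 served for exon lengths and shared stretches. The test was checked on simulated data. The members and gene lists were chosen with earlier results of these data known. Named genes were the members, all Cd300 symbols, Tlr4, the 5 genes most like each member, and per list and comparison up to 4 called genes with the largest change and a mean of at least 50. Alternatives were DESeq2, RLE, other filters, a replicate block, smaller fits and leaving out each library. A gene that met the rule for named genes is not reported here.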

Additional observations from a re-analysis of the deposited data

Results flagged for a closer look

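Of the 3 Cd300 genes tested that are not members, 2 differed between genotype labels in their response to rmCIRP, by edgeR's test of that difference. Over all genes, 31.4% passed in this comparison. For Cd300c2 the difference, labelled TLR4-/- minus WT, was 0.76 on the log2 scale (SE 0.15, adjusted p = 0.00054): it fell by 0.84 in WT cells and stood at -0.08 in cells labelled TLR4-/-. For Cd300e it was -1.44 (SE 0.54, adjusted p = 0.057), with 1.24 in WT cells and -0.20 in cells labelled TLR4-/-, on 0 to 42 reads per library. The call of Cd300e was lost without the second PBS or the third rmCIRP library of WT cells, where the adjusted p reached 0.23. Conditions with 3 libraries are too small to test for a single library far from the others.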

How the results depend on the processing

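Unless named here, the values of the members kept their direction and side of the threshold under DESeq2, RLE normalisation, the replicate block, a fit of only the libraries compared, and both other filters (none, or a mean of 10 reads). The cause of the changes was not tested.

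With no filter, the following passed: Cd300lb (-0.30, adjusted p = 0.0071) and Cd300lf (0.30, adjusted p = 0.084) with rmTGF-β1 against PBS in WT cells, Cd300lf (0.58, adjusted p = 2.9e-05) with both agents against rmCIRP in WT cells, and Cd300a (0.27, adjusted p = 0.014) and Cd300lb (0.20, adjusted p = 0.062) with both against rmTGF-β1 in cells labelled TLR4-/-. The genotype difference of the rmTGF-β1 response of Cd300ld turned to -0.01 and the response of Cd300c2 to rmTGF-β1 in cells labelled TLR4-/- to 0.00. Cd300lb with rmTGF-β1 in WT cells also passed with the replicate block (-0.33, adjusted p = 0.067) and by DESeq2 (-0.32, adjusted p = 0.082). Cd300lf with both against rmCIRP in WT cells, at 0.58 each time, passed with the block (adjusted p = 0.056), with only the libraries compared (0.0038) and by DESeq2 (0.025). Cd300a with both against rmTGF-β1 in cells labelled TLR4-/- passed with the block (0.26, adjusted p = 0.099), and against rmCIRP it missed with only the libraries compared (0.39, adjusted p = 0.12).

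On average the replicate numbers did not pair the libraries. The mean correlation of same-numbered deviations was 0.012, between -0.12 and 0.37, and 4 of 84 pairs exceeded 0.1. A batch shared by some of the libraries was not tested. The replicate block changed no other call of a member.

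The number of genes called moved by over 1.5 times as follows. For rmCIRP in cells labelled TLR4-/- it was 149 with no filter, 1 with the block, 29 with only the libraries compared and 33 by DESeq2, and 0 to 9 when a library was left out. For both agents against rmTGF-β1 under that label (437) it was 1580, 810, 0 and 902, and 0 to 2674 when a library was left out. For the genotype difference of the rmTGF-β1 response (14) it was 563 with no filter, 23 at a mean of 10, 22 with the block and 163 by DESeq2, and 0 to 119 when a library was left out. For both against rmCIRP under the label it was 2710 with only the libraries compared. Leaving out a library gave 1029 to 1690 for rmTGF-β1 in WT cells and 2517 to 3783 under the label.

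Leaving out each library gave these ranges on the log2 scale where a call or sign changed. With rmTGF-β1 in WT cells they were -0.46 to -0.21 for Cd300lb, -0.46 to -0.33 for Cd300ld and -0.07 to 0.02 for Cd300a. Under the TLR4-/- label they were -0.32 to -0.22 for Cd300lb, -0.02 to 0.12 for Cd300a and -0.02 to 0.08 for Cd300c2. For the genotype difference of that response they were -0.03 to 0.09 for Cd300ld and -0.07 to 0.18 for Cd300lb. With both against rmCIRP they were -0.02 to 0.18 for Cd300lb and -0.36 to -0.05 for Cd300ld in WT cells, and -0.14 to 0.08 for Cd300lb under the label. With both against rmTGF-β1 under the label they were 0.08 to 0.37 for Cd300a, -0.13 to 0.28 for Cd300lf, -0.04 to 0.07 for Cd300ld and 0.00 to 0.20 for Cd300c2. The described genotype difference of the rmCIRP response of Cd300a ranged from 2.31 to 2.57.

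Without Lyz2 among the markers, the log2 ratio of rmCIRP to PBS in WT cells per macrophage marker read was -2.67 for Cd300a, -2.80 for Cd300lb, -0.67 for Cd300lf and -1.11 for Cd300ld, and that of the genotype labels with PBS was -0.11, -0.22, 0.07 and -0.03 in the same order. From the 8 condition means in place of the 24 libraries, 1, 3, 3 and 0 of the 5 genes most like Cd300a, Cd300lb, Cd300lf and Cd300ld were shared. Levels on TMM-scaled CPM moved by less than the SD of the libraries.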
